A study of Homo sapiens with 6 samples.

Results

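Genes of cholesterol synthesis, of the control of sterol regulatory element-binding proteins (SREBPs) and of sterol transport were followed in KYSE450 cells with HMGB2 knocked down. They are 34 named genes, found by exact gene name among the 27887 rows of the deposited expression table, and all 34 had a row. By role, 7 act from acetyl-CoA to farnesyl diphosphate, 11 act from squalene to cholesterol, 8 control SREBP processing, and 8 move, sense or esterify sterols. RNA-seq was done on 6 libraries from KYSE450, an established human line of esophageal squamous cell carcinoma. In the mock group, 3 libraries came from cells labelled wild type that received a mock virus. In the shHMGB2 group, 3 libraries came from cells labelled HMGB2 knockdown that received a virus carrying a short hairpin RNA against HMGB2, a chromatin protein that bends DNA. Both groups were therefore infected and were grown in medium with fetal bovine serum. The hairpin sequence, the number of hairpins, the time after infection and whether the cells were a clone were not given in the sources used here. As its question, the design text of the series gives regulators of cholesterol metabolism.

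Cells build cholesterol from acetyl-CoA through mevalonate, isoprenoid diphosphates, squalene and lanosterol. SREBPs are made as precursors in the endoplasmic reticulum membrane. When sterols are scarce, SCAP escorts them to the Golgi, where the proteases of MBTPS1 and MBTPS2 release the part that activates genes of synthesis and uptake. When sterols are plentiful, the INSIG proteins hold SCAP back, and oxysterols activate the LXR receptors, which turn on sterol efflux.

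Values are FPKM, fragments scaled to transcript length and library size, so that levels of different genes can be compared per length. The test was limma on log2(FPKM + 1) over the 13409 genes that averaged 1 FPKM or more, with Benjamini-Hochberg adjusted p under 0.05 as the threshold. Fold changes are on that log2 scale, shHMGB2 over mock, and understate the change of low genes. HMGB2 itself measured 116, 111 and 109 FPKM with mock virus against 22.1, 24.5 and 27.8 FPKM with the hairpin, a log2 fold change of -2.14 (limma adjusted p = 0.000113). Over all genes, 442 were called higher and 463 lower, and 349 and 571 under median-of-ratios scaling. The total of 905 calls dropped to 323 when mock replicate 2 was left out, and to 310, 288 and 311 on leaving out shHMGB2 replicate 1, 2 or 3. Relative depth, read from genes seen in a single library, ranged from 1.00 in shHMGB2 replicate 3 to 1.88 in shHMGB2 replicate 1. All 8 squamous markers were present, at mean levels from 67.4 to 3440 FPKM. Of these 8, 1 was called higher and 3 lower, against 3.30% and 3.45% of all genes tested. SOX2 was the higher one (log2 fold change 0.42), and KRT14, KRT6A and KRT17 were lower (-0.55, -0.54 and -0.41). Summed markers of fibroblasts were 2.91 to 3.69 FPKM in mock and 3.96 to 4.38 in shHMGB2, those of leukocytes 6.90 to 7.70 and 4.47 to 4.87, and those of endothelium 1.87 to 2.58 and 2.39 to 2.77. COL1A2, PTPRC and PECAM1 stayed at or under 0.03 FPKM in each library, and CD3E had no row under that name. CD14 was listed at 0 in all mock libraries and at 0.13, 0 and 0.12 FPKM in shHMGB2. LYZ, also near 0, had 0, 0.08 and 0.03 FPKM in mock and 0.09, 0.13 and 0.10 in shHMGB2, the opposite direction to CD68. The fibroblast sum is mostly LUM, with means of 2.57 and 3.49 FPKM, while COL1A1 had 0.70 and 0.64. The leukocyte sum is mostly CD68, expressed in macrophages, with means of 7.28 and 4.43 FPKM, and CD68 was called lower (limma adjusted p = 0.00454). The sum of NEFL and NEFM, listed as markers of virus packaging cells, was 10.8 to 12.4 FPKM in mock and 14.6 to 16.1 in shHMGB2. NEFL makes up most of that sum and was called higher (log2 fold change 0.37, limma adjusted p = 0.0292), while NEFM had means of 0.177 and 0.167 FPKM. The part of these values in the results that follow was not tested. In such bulk RNA, fewer cells of a kind and less RNA per cell cannot be told apart.

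No sterol gene passed the test. Of the 34 genes, 33 met the minimum level and 0 were called in limma, where 6.75% of all genes tested were called. ABCG1, a sterol exporter, was the gene that did not meet it, at 0.56, 0.54 and 0.77 FPKM in mock and 0.72, 0.83 and 0.58 in shHMGB2. At an unadjusted p under 0.05 there were 6 of 33 sterol genes, against 27.9% of all genes tested. Those 6 were LSS, TM7SF2, NR1H2 and SOAT1 with positive fold changes and FDFT1 and INSIG1 with negative ones. The libraries of the groups did not overlap in 8 of the 33 genes, against 35.6% of all genes tested. They lay above mock in 6 (21.6% of all genes) and below it in 2 (14% of all genes). The median log2 fold change was 0.04 over the 33 genes and 0.04 over all genes tested. In the authors' deposited table, 4 of the 34 genes had an adjusted p under 0.05, against 15.4% of all genes with such a value. Of these 4, LSS was higher (6.13% of all genes were) and FDFT1, INSIG1 and STARD4 were lower (9.23% of all genes were). A separate column of that table marks 76 rows as up or down, and 0 of the 34 genes are among them. With limma array weights, an alternative that weights libraries unequally, 10 sterol genes were called, 8 higher and 2 lower, beside 4194 calls over all genes.

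**Figure D1:**
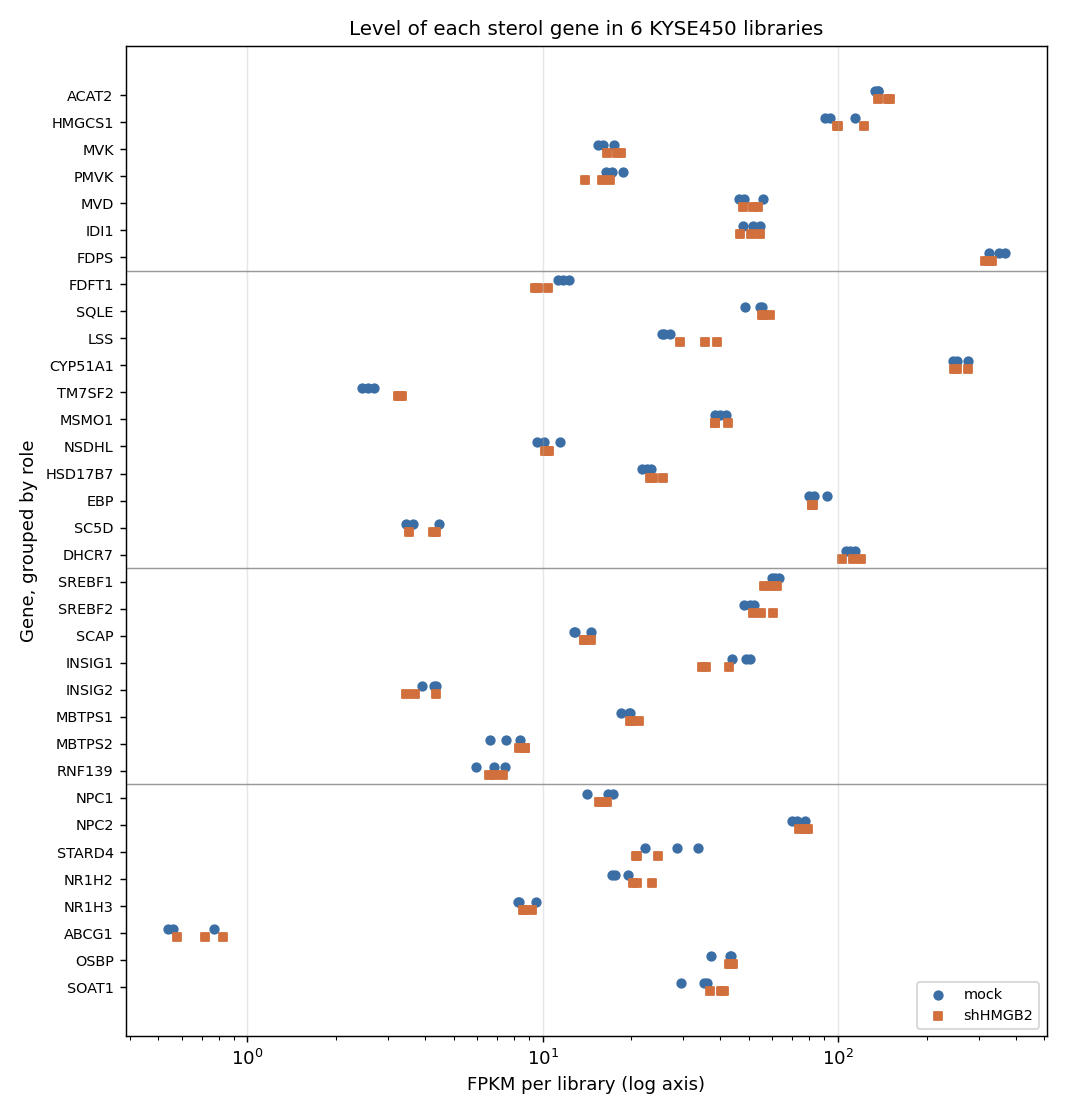
FPKM of each of the 34 genes in each library on a log axis, with 3 mock libraries as circles and 3 shHMGB2 libraries as squares, ordered by role and separated by lines. Levels span from under 1 FPKM for ABCG1 to 367 FPKM for FDPS, and the groups lie close together at nearly every step.

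The intervals of most sterol genes were narrow, as were those of most genes tested. They reflect the spread between libraries only, which may be technical. The 95% interval of the fold change lay within 1.5-fold in both directions for 31 of the 33 genes, and for 85.3% of all genes tested. The exceptions were LSS, whose interval reached 1.54-fold higher, and STARD4, whose interval reached 0.634 of mock. A gene that misses the threshold is not thereby shown to be equal between the groups.

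**Figure D2:**
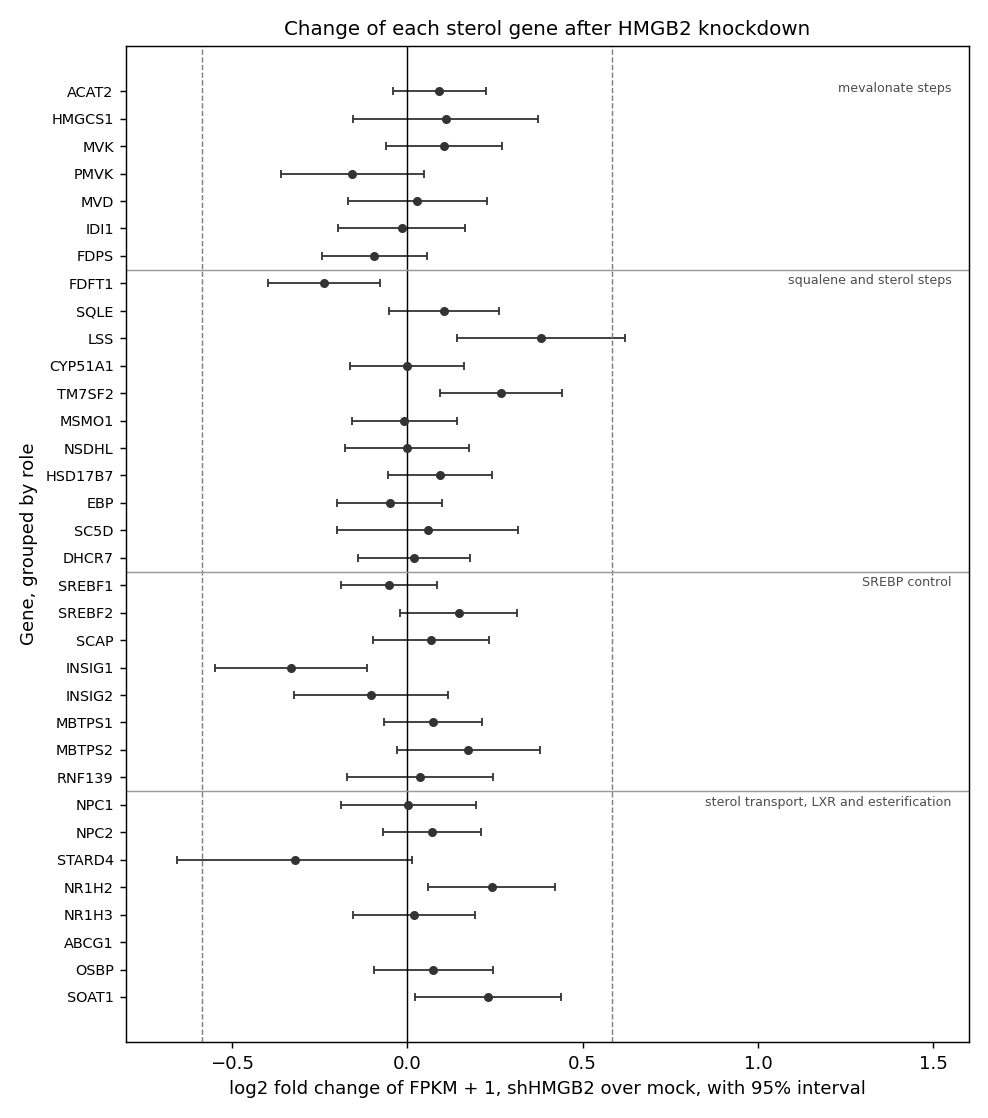
Log2 fold change of FPKM + 1, shHMGB2 over mock, for the 33 genes tested, with 95% intervals from limma; dashed lines mark 1.5-fold in each direction. The interval of LSS and that of STARD4 cross a dashed line, and ABCG1 has no point because it was not tested.

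The mevalonate genes differed little between the groups. All 7 had intervals within 1.5-fold, as did 85.3% of all genes tested, and 0 of 7 were called, against 6.75% of all genes tested. Their log2 fold changes ran from -0.16 to 0.11, and limma adjusted p ran from 0.283 to 0.916. HMGCS1, which condenses acetyl-CoA units into HMG-CoA, had 94.4, 90.6 and 114 FPKM in mock and 99.6, 123 and 100.5 FPKM in shHMGB2. The groups overlapped, with mock replicate 3 and shHMGB2 replicate 2 high (log2 fold change 0.11, 95% interval -0.15 to 0.37, limma adjusted p = 0.555). IDI1, the isomerase that makes dimethylallyl diphosphate, had 47.8, 51.5 and 54.4 FPKM in mock and 46.7, 54.6 and 51.0 FPKM in shHMGB2. Its values overlapped fully (log2 fold change -0.02, 95% interval -0.20 to 0.17, limma adjusted p = 0.916). ACAT2, the cytosolic thiolase that opens the route, averaged 136 ± 1.34 and 145 ± 7.38 FPKM (SD, n = 3). The kinases MVK and PMVK had log2 fold changes of 0.10 and -0.16, and the decarboxylase MVD 0.03. On GRCh38, HMGCS1 lies on chromosome 5 at 43287470 to 43313412 and IDI1 on chromosome 10 at 1039152 to 1056704. FDPS, which makes farnesyl diphosphate, was the most abundant of the 34 genes, going from 348 ± 21.8 to 325 ± 8.61 FPKM (SD over 3 libraries; limma adjusted p = 0.373).

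From squalene onward, the libraries of 4 of 11 genes did not overlap, a share near the 35.6% of all genes tested. LSS, TM7SF2 and SQLE lay above mock, and FDFT1 below. Of the 11 genes of this section 0 were called, against 6.75% of all genes tested, with a median log2 fold change of 0.02. FDFT1, the squalene synthase at the branch into sterols, had 11.3, 11.8 and 12.3 FPKM in mock and 9.43, 10.5 and 9.62 FPKM in shHMGB2. Each shHMGB2 library was below each mock library (log2 fold change -0.24, SE 0.068, limma adjusted p = 0.0785). A row named FDFT1-2 held more signal, at 118, 106 and 107 FPKM in mock and 90.2, 92.4 and 97.9 in shHMGB2. What such numbered rows hold was not given in the sources used here, and if FDFT1-2 is the same gene the listed row gives only a small part of its level. With both rows summed, the values were 129, 118 and 119 FPKM in mock and 99.7, 103 and 108 with the hairpin, again without overlap. The summed change was -0.24 (SE 0.062, 95% interval -0.38 to -0.10, limma adjusted p = 0.0509), just outside the threshold. The authors' deposited table gave the listed row an adjusted p of 0.0457.

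SQLE, the epoxidase that adds oxygen to squalene, had 54.6, 48.5 and 55.2 FPKM in mock and 56.0, 58.9 and 55.3 FPKM in shHMGB2. The lowest shHMGB2 library lay only just above the highest mock library (log2 fold change 0.10, 95% interval -0.05 to 0.26, limma adjusted p = 0.346). LSS, the cyclase that folds oxidosqualene into lanosterol, had 25.9, 25.4 and 27.1 FPKM in mock and 39.1, 35.5 and 29.2 FPKM in shHMGB2. All shHMGB2 libraries were above mock, but they spread more widely than mock, and replicate 3 lay nearest to it. The mean went from 26.1 ± 0.882 to 34.6 ± 4.99 FPKM (SD over 3 libraries), a log2 fold change of 0.38 with SE 0.10 (limma adjusted p = 0.0684). LSS passed without shHMGB2 replicate 3 (log2 fold change 0.49, limma adjusted p = 0.0305). It also passed when the row named LSS-2, listed at 0 except for 0.27 and 0.74 FPKM in shHMGB2 replicates 2 and 3, was summed in (log2 fold change 0.40, limma adjusted p = 0.0380). The authors' deposited table gave LSS a log2 fold change of 0.31 and an adjusted p of 0.00900. LSS lies on chromosome 21 at 46188446 to 46228774 (GRCh38), and TM7SF2, described next, on chromosome 11 at 65111872 to 65116230.

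Of the listed sterol genes that act from lanosterol to cholesterol, TM7SF2 alone had groups that did not overlap. LBR, also a sterol C14 reductase but on another list described below, did not overlap either. It had 29.5, 32.5 and 35.5 FPKM in mock and 44.5, 47.6 and 44.4 FPKM in shHMGB2. TM7SF2, a sterol C14 reductase, had 2.45, 2.68 and 2.56 FPKM in mock and 3.23, 3.28 and 3.35 FPKM in shHMGB2. The level was low (log2 fold change 0.27, SE 0.074, limma adjusted p = 0.0734), and the gene passed with no mean-variance trend (limma adjusted p = 0.0464). CYP51A1, the lanosterol demethylase, had nearly equal means of 259 ± 16.1 and 259 ± 14.6 FPKM (SD over 3 libraries; 95% interval of the log2 fold change -0.16 to 0.16). The C4 demethylation genes MSMO1, NSDHL and HSD17B7 had log2 fold changes of -0.01, -0.0009 and 0.09. EBP, the sterol isomerase, SC5D, the desaturase, and DHCR7, the last reductase, had -0.05, 0.06 and 0.02. Summed over the 18 synthesis genes, FPKM was 1357, 1312 and 1358 in mock and 1318, 1400 and 1326 in shHMGB2, which overlap.

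Among the genes that control SREBPs, the shHMGB2 libraries all lay below mock for INSIG1 and just above it for MBTPS1, while those of the SREBF genes and SCAP overlapped. Of 8 genes, 1 lay above mock without overlap and 1 below it, against 21.6% and 14% of all genes tested. In limma 0 of the 8 were called, against 6.75% of all genes tested, and the median log2 fold change was 0.05. INSIG1, the membrane anchor that is itself a target of SREBPs, had 48.9, 43.8 and 50.3 FPKM in mock and 34.8, 42.7 and 35.8 FPKM in shHMGB2. The groups did not overlap, although shHMGB2 replicate 2 came close to mock replicate 2. The mean went from 47.7 ± 3.39 to 37.8 ± 4.35 FPKM (SD over 3 libraries), a change of -20.8%, with a log2 fold change of -0.33 (SE 0.093, 95% interval -0.55 to -0.11, limma adjusted p = 0.0749). Over the 16 alternatives tried its log2 fold change stayed negative, from -0.42 to -0.20, with limma adjusted p from 0.0564 to 0.196. In the authors' deposited table it was -0.40 with an adjusted p of 0.00109. INSIG1 lies on chromosome 7 at 155297878 to 155310235 (GRCh38). INSIG2, its less abundant relative, had 3.90, 4.35 and 4.30 FPKM in mock and 3.44, 4.37 and 3.71 FPKM in shHMGB2, which overlap (log2 fold change -0.10, 95% interval -0.32 to 0.12, limma adjusted p = 0.506). The level of INSIG1 was 10.1 to 12.5 times that of INSIG2 in mock and 9.64 to 10.1 times in shHMGB2.

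SREBF2, which encodes the SREBP that mainly drives sterol synthesis, had 48.0, 50.5 and 51.9 FPKM in mock and 60.6, 54.8 and 51.7 FPKM in shHMGB2. shHMGB2 replicate 1 was high and replicate 3 lay inside the mock range (log2 fold change 0.15, 95% interval -0.02 to 0.31, limma adjusted p = 0.222). SREBF1, whose products mainly drive fatty acid genes, had 63.4, 59.8 and 61.2 FPKM in mock and 62.1, 59.4 and 56.3 FPKM in shHMGB2, with overlap (log2 fold change -0.05, 95% interval -0.19 to 0.08, limma adjusted p = 0.587). The ratio of SREBF1 to SREBF2 levels was 1.18 to 1.32 in the mock libraries and 1.03 to 1.09 in the shHMGB2 libraries, without overlap; this ratio was looked at after the values were seen and has no test. SCAP had 14.6, 12.8 and 12.9 FPKM in mock and 14.6, 13.8 and 13.8 FPKM in shHMGB2 (log2 fold change 0.07, 95% interval -0.10 to 0.23, limma adjusted p = 0.555). MBTPS1 had 19.7, 18.5 and 19.8 FPKM in mock and 21.2, 20.1 and 19.8 FPKM in shHMGB2, with the nearest libraries at 19.79 and 19.80. The proteases MBTPS1 and MBTPS2 had log2 fold changes of 0.07 and 0.17 (limma adjusted p = 0.453 and 0.234). On GRCh38, SREBF1 lies on chromosome 17 at 17811334 to 17836986, SREBF2 on chromosome 22 at 41833105 to 41907305 and SCAP on chromosome 3 at 47413681 to 47477127. RNF139, a ubiquitin ligase of this membrane, had 0.04. RNF139 and NSDHL each have such a numbered row at a like level, and the summed means in mock were 13.3 and 20.2 FPKM against 6.75 and 10.4 in the listed rows.

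SREBPs bind the sterol regulatory element, often beside a CCAAT box that binds NF-Y. The upstream regions below show these letters for the genes whose values are compared most closely here, with the element or box in capitals. They are read from RefSeq promoters (GRCh38.p14), 5′ to 3′ on the strand of the gene, and each ends before the start of the transcript.
SREBF2, element, chr22:41832962-41832990, plus strand: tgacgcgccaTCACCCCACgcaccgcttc
INSIG1, box, chr7:155297696-155297724, plus strand: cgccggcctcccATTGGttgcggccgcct
STARD4, box, chr5:111512649-111512677, minus strand: ctcccgcgccagCCAATccgaacaagcgc
LSS, box, chr21:46228908-46228936, minus strand: cgcggcgctctgATTGGttgcgtgggcgt
HMGCS1, box, chr5:43313496-43313524, minus strand: ctaccggccgcgATTGGctgtgggagcca
ATTGG is CCAAT on the other strand. Promoter windows of 250 bases before to 50 bases after the start were found for 29 of the 34 genes. The letters TCACNCCAC, which allow any base at N, occurred on either strand in 1 of these 29 genes, SREBF2, and in 1.39% of all genes with a window. CCAAT on either strand occurred in 20 of the 29 genes and in 39.7% of all genes with a window. INSIG1, STARD4, LSS and HMGCS1 all carry the box, and their log2 fold changes were -0.33, -0.32, 0.38 and 0.11. A match is a description of the letters, not of binding. Only these letters were searched, and only in this window, so a gene without a match is not shown to lack the element.

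Of the 7 tested sterol transport and sensing genes 0 were called, against 6.75% of all genes tested. Fold changes were positive in 6 of the 7, and in 7647 of the 13409 genes tested, and STARD4 had a negative one. NPC1, NPC2 and NR1H3, with small positive log2 fold changes of 0.003, 0.07 and 0.02, had -0.06, -0.01 and -0.06 in the authors' deposited table. STARD4, a soluble carrier of cholesterol between membranes and also a target of SREBPs, had 22.3, 28.6 and 33.6 FPKM in mock and 20.9, 24.7 and 20.8 FPKM in shHMGB2. Mock spread widely, and mock replicate 1 lay inside the shHMGB2 range. The log2 fold change was -0.32 (SE 0.14, 95% interval -0.66 to 0.01, limma adjusted p = 0.193), and -0.47 without mock replicate 1 (limma adjusted p = 0.0571). The authors' deposited table gave -0.47 with an adjusted p of 0.00400. STARD4 lies on chromosome 5 at 111496033 to 111512535 (GRCh38). STARD4-AS1, an antisense RNA that shares 124 exonic bases with STARD4, had 0.22, 0.19 and 0.28 FPKM in mock and 0.51, 0.48 and 0.41 in shHMGB2. It lay under the minimum level for the test, reached 0.0489 as the adjusted p of the authors' deposited table, and was named after its values were seen. Whether the counting used strand was not given in the sources used here, and without strand, reads of STARD4 and STARD4-AS1 in the shared bases cannot be told apart.

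**Figure D3:**
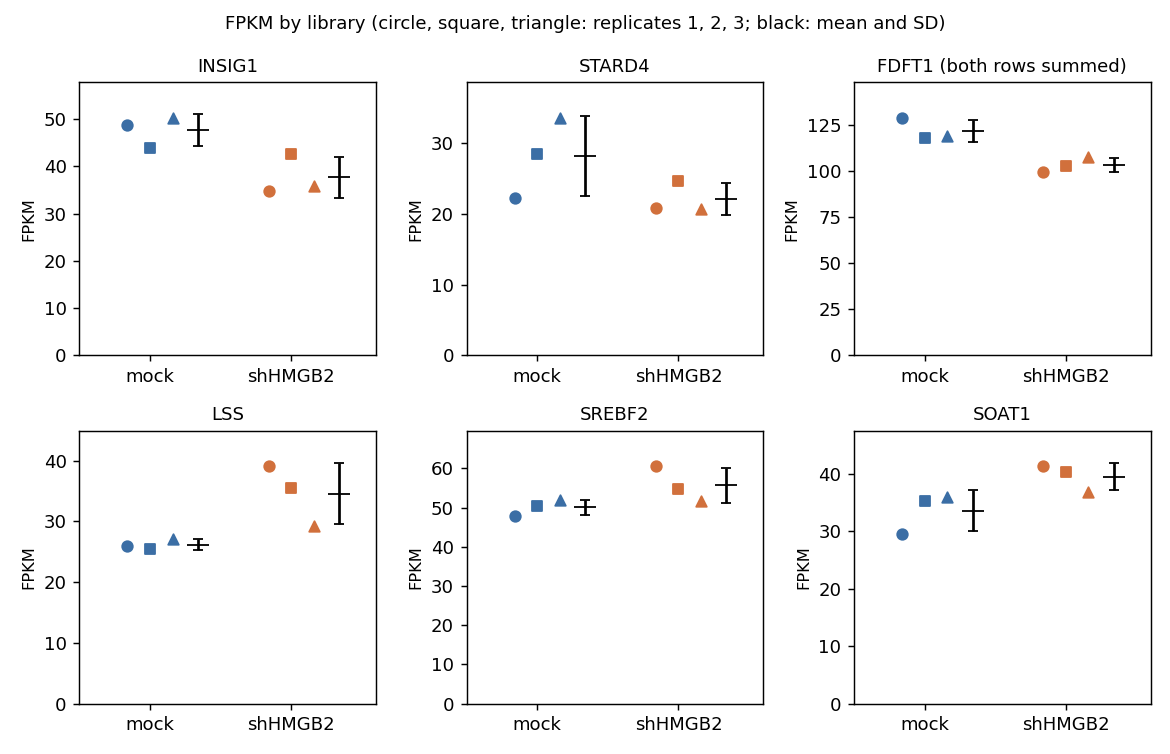
FPKM of 6 sterol genes by library, with replicates 1, 2 and 3 as circle, square and triangle, mock in blue and shHMGB2 in orange, and black marks for the mean and SD of 3 libraries; each axis starts at 0. The FDFT1 panel shows the listed row and FDFT1-2 summed, and the other panels show the listed rows. INSIG1, FDFT1, LSS and SOAT1 separate the groups, STARD4 and SREBF2 overlap, and the spread of LSS in shHMGB2 and of STARD4 in mock is wide.

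NR1H2, the widely expressed LXR, had 19.4, 17.2 and 17.5 FPKM in mock and 23.4, 20.2 and 20.9 FPKM in shHMGB2. The groups did not overlap (log2 fold change 0.24, SE 0.077, 95% interval 0.06 to 0.42, limma adjusted p = 0.102). NR1H3, the other LXR, had means of 8.70 ± 0.682 and 8.82 ± 0.358 FPKM (SD over 3 libraries; log2 fold change 0.02, limma adjusted p = 0.890). The NR1H2 level was 2.05 to 2.12 times that of NR1H3 in mock and 2.35 to 2.54 times in shHMGB2, a ratio also looked at after the values were seen and not tested. SOAT1, which esterifies cholesterol for storage, had 29.5, 35.3 and 36.0 FPKM in mock and 41.3, 40.4 and 36.9 FPKM in shHMGB2. Each shHMGB2 library lay above each mock library, by a narrow margin for replicate 3 (log2 fold change 0.23, SE 0.089, 95% interval 0.02 to 0.44, limma adjusted p = 0.145). In the authors' deposited table SOAT1 had a log2 fold change of 0.07 and an adjusted p of 0.601. On GRCh38, NR1H2 lies on chromosome 19 at 50376457 to 50383388 and SOAT1 on chromosome 1 at 179293797 to 179358680. NPC1, the lysosomal membrane protein that exports cholesterol, had 14.2, 17.3 and 16.6 FPKM in mock and 16.5, 15.6 and 15.9 FPKM in shHMGB2. Its means of 16.0 and 16.0 FPKM did not separate (log2 fold change 0.003, 95% interval -0.19 to 0.20, limma adjusted p = 0.985). NPC1 lies on chromosome 18 at 23506184 to 23586506 (GRCh38). NPC2, its soluble partner, and OSBP, a sterol exchanger at membrane contacts, had log2 fold changes of 0.07 and 0.07 (limma adjusted p = 0.466 and 0.534).

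Within the groups, many synthesis genes were high in the same libraries. Of the 18 synthesis genes, 10 had their highest mock value in replicate 3 and 11 had their highest shHMGB2 value in replicate 2, against 36.3% and 31.6% of all genes tested. Highest in both were 8 of the 18, ACAT2, HMGCS1, IDI1, FDFT1, SQLE, CYP51A1, MSMO1 and SC5D, and also INSIG1 and STARD4, against 16.2% of all genes tested. FDFT1 counts here only by its listed row. Summed with FDFT1-2, which held more signal, FDFT1 was highest in mock replicate 1 (129 FPKM) and in shHMGB2 replicate 3 (108 FPKM). The median deviation of the 18 genes from their group mean was 0.03 in mock replicate 3 and 0.06 in shHMGB2 replicate 2 on the log2 scale, and 0.008 and 0.0003 over all genes tested. This pattern was noticed in the data and has no test. Relative depth was 1.73 in mock replicate 3, the deepest mock library, and 1.64 in shHMGB2 replicate 2, between the other two; the part of depth was not tested. The pooled within-group SD of log2(FPKM + 1) was 0.22 for STARD4 and 0.17 for HMGCS1, above that of 91.5% and 83.6% of genes tested, and 0.15 for LSS and 0.13 for INSIG1. It was 0.09 at the median of the 33 genes and 0.10 at that of all genes tested.

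**Figure D4:**
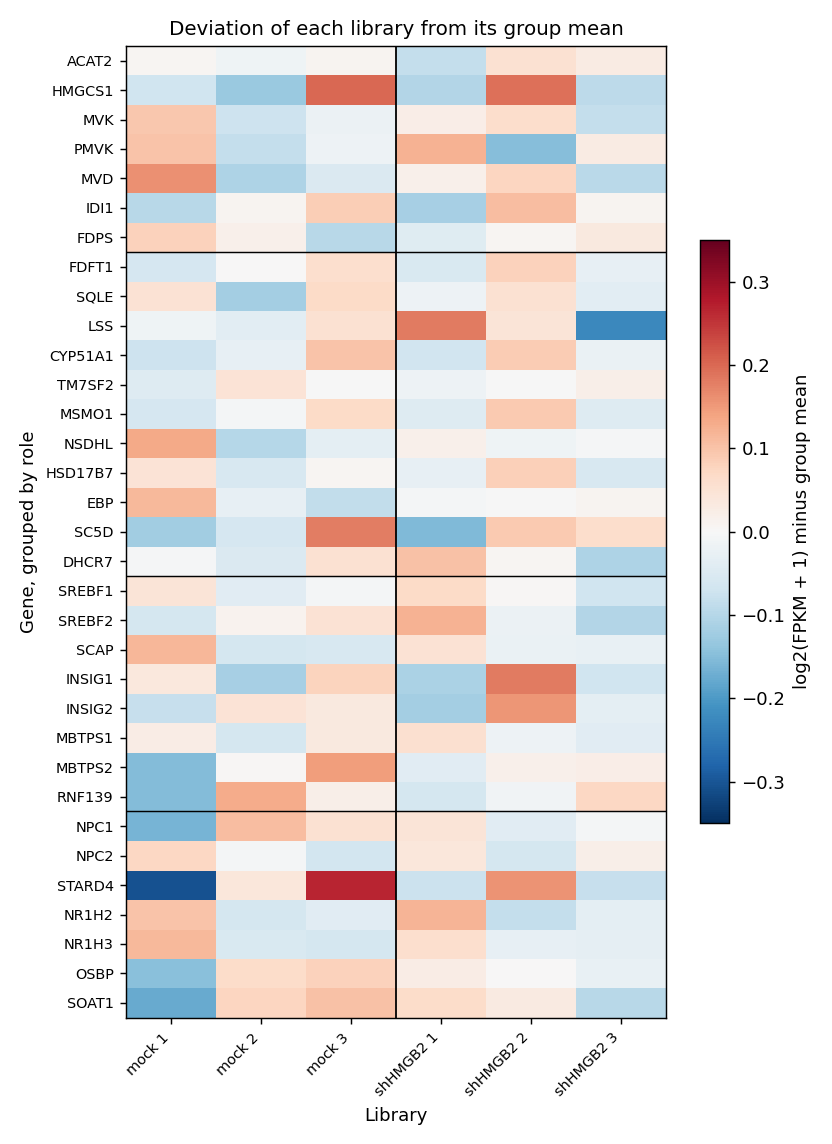
Deviation of log2(FPKM + 1) in each library from the mean of its own group, for the 33 genes tested, with mock left and shHMGB2 right of the line; red is above and blue below the group mean. HMGCS1, IDI1, CYP51A1, MSMO1, INSIG1 and STARD4 are red in mock replicate 3 and in shHMGB2 replicate 2.

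Genes around the pathway were read from 5 further lists, with 72 genes in the table and 70 tested. Of these 70, 4 were higher and 1 was lower, against 3.30% higher and 3.45% lower among all genes, and the median log2 fold change was 0.08. The authors' deposited table had the other balance for these lists, with 3 higher and 8 lower of 70, against 6.13% higher and 9.23% lower among all genes. SEC23A, a coat subunit of the vesicles that carry SCAP to the Golgi, rose from 22.1, 25.9 and 28.1 FPKM to 33.8, 36.7 and 33.7 FPKM (log2 fold change 0.45, SE 0.091, limma adjusted p = 0.0332). It was the 1 of 10 coat genes that passed, and the median log2 fold change of the list was 0.12. OSBPL9, an oxysterol-binding protein relative, rose from 25.9, 25.7 and 27.4 FPKM to 31.0, 30.9 and 32.5 FPKM (log2 fold change 0.25, SE 0.056, limma adjusted p = 0.0438). With LIPA, the lysosomal lipase that frees cholesterol from its esters (log2 fold change 0.26, limma adjusted p = 0.0276), it made 2 of 19 tested sterol transfer genes that rose. LBR, a second sterol C14 reductase beside TM7SF2 and a nuclear lamina protein, was the 1 of 13 tested acetyl-CoA and accessory genes that passed (log2 fold change 0.48, limma adjusted p = 0.0147). Of 15 genes on the isoprenoid branches 0 passed, with PDSS2, a subunit of the enzyme for the coenzyme Q side chain, at the smallest p (log2 fold change 0.21, limma adjusted p = 0.0752).

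Leaving out a library ended each of these 4 higher calls. SEC23A, LIPA and LBR did not pass without mock replicate 2 or without any shHMGB2 library, and OSBPL9 did not pass without any of the 6. The limma adjusted p in those fits were 0.0900 to 0.122 for SEC23A, 0.0735 to 0.117 for LIPA, 0.0544 to 0.0673 for LBR and 0.0531 to 0.146 for OSBPL9. OSBPL9 also did not pass under median-of-ratios scaling (limma adjusted p = 0.0682), with no mean-variance trend (0.0610) or with no filter (0.0653), and SEC23A did not pass with no filter (0.0919). With a library left out, log2 fold changes stayed positive, at 0.35 to 0.52 for SEC23A and 0.24 to 0.28 for LIPA. They were 0.41 to 0.54 for LBR and 0.22 to 0.27 for OSBPL9. The authors' deposited table gave adjusted p of 0.00271 for SEC23A, 0.0223 for LIPA, 6.72e-05 for LBR and 0.0627 for OSBPL9.

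Some levels are uncertain because transcripts are shared. Of the 34 genes, 14 share exonic bases with a gene on the opposite strand in GENCODE 29, 6 of them with a protein-coding gene. ACAT2 shares 1141 exonic bases with SOD2, a mitochondrial superoxide dismutase at a mean of 211 FPKM, and 397 with TCP1, a chaperonin subunit at 363 FPKM, and MVK shares 306 with MMAB. On the same strand, CYP51A1 shares 2844 exonic bases with AC000120.2 and MBTPS2 shares 1093 with YY2, at a mean of 1.08 FPKM. FDPS, CYP51A1 and HSD17B7 have named pseudogene copies whose reads the authors' counting could split. The deposited group values, which act as normalized counts, averaged from 42.6 for ABCG1 to 17481 for CYP51A1.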

How the data were processed

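The authors deposited 1 table with FPKM per library (2 decimals, per the file headers), a normalized group signal, log2 fold changes, and p-values of a test that was not given in the sources used here. In the submitters' processing notes, the tools and build include Bowtie2 2.2.5, RSEM 1.2.12 and hg38 with no role or order. No read counts per library were used. In genes seen in a single library, the mean of the deposited group signal came in whole steps in 100% of cases (tolerance 0.01), which gave relative depths.

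Libraries were mapped to groups by title. log2(FPKM + 1) was fitted with limma 3.58.1 in R 4.3.3, group as the single term, mean-variance trend, 2-sided, over genes averaging 1 FPKM or more. The fit was tested on simulated data. Separate cultures are not stated in the labels; p-values therefore reflect library-to-library spread only, possibly technical. Members and lists were chosen with earlier results of these data known. Genes given in full were those called by limma or in the authors' table, those whose log2 fold change was 0.25 or more in size without overlap, and a fixed set of 11; from other lists, genes called or the smallest p. The result of 1 gene from these other lists is not reported here. Rows named as a gene with a number added (2138, among them FDFT1-2, LSS-2, NSDHL-2 and RNF139-2) were summed with that gene only in an alternative added after seeing the data. Gene positions and promoters are from RefSeq (GRCh38.p14), overlaps from GENCODE 29. Other alternatives covered pseudocount, filter, scaling, variance model, weights, threshold, replicate block and each library left out.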

Additional observations from a re-analysis of the deposited data

How the results depend on the processing

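No sterol gene was called under either other pseudocount, either other filter, either other scaling or the replicate block. Sterol genes called higher were 1 with no mean-variance trend (TM7SF2), 8 with array weights, 1 with numbered copies summed (LSS) and 2 at a threshold of 0.10, and 0 to 1 with a library left out. Sterol genes called lower were 2 with array weights (STARD4 and FDFT1) and 2 at a threshold of 0.10. The cause was not tested. Over all genes, calls higher and lower were 431 and 427 with no mean-variance trend, 566 and 536 with numbered copies summed, 167 and 245 with no filter, 2436 and 1758 with array weights, 1156 and 878 at a threshold of 0.10, and from 96 to 444 higher and from 192 to 445 lower with a library left out. With the replicate block they were 138 and 234. The replicate numbers did not pair the libraries: deviations of same-numbered libraries correlated at -0.01, -0.04 and -0.10, and no library correlated best with its own number. SEC23A, LIPA and OSBPL9 did not pass with the block. In 22 of 33 sterol genes the fold change kept its sign under each alternative, and the 11 that changed sign were not called in any. ABCG1 entered only with no filter.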
